A study of Homo sapiens with 11 samples.

Results

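The 32 genes described here move fatty acids into heart muscle cells and break them down in mitochondria. They were chosen by symbol from the 36601 genes of the count tables, and all 32 were found there. By role they comprise 4 genes of the carnitine shuttle, 4 acyl-CoA dehydrogenases, 5 enzymes of the beta-oxidation spiral, 3 enzymes for unsaturated chains, 3 genes of the electron transfer flavoprotein, 3 long-chain acyl-CoA synthetases, 4 genes of uptake and binding, and 6 regulators.

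Fatty acids enter a cardiomyocyte through CD36 and related carriers, are bound in the cytosol by FABP3, are activated by acyl-CoA synthetases and cross into mitochondria on carnitine. In the matrix, repeated rounds of beta-oxidation shorten the chain and pass electrons to the respiratory chain. Fetal cardiomyocytes are known to depend mainly on glucose and lactate, and the adult heart mainly on fatty acids, with PPARA, the PGC-1 coactivators and the estrogen-related receptors among the regulators of the switch.

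The cells came from H9, a human embryonic stem cell line, and were collected on day 42.5 in 3 groups. The groups are cardioids (heart organoids) with PD173074, an inhibitor of FGF receptors, cardioids without PD173074, and a 2D culture. The labels do not give the time or length of the PD173074 treatment and name no separate cultures. The libraries of a group shared 99.3% to 99.9% of their cell barcodes, against at most 0.737% between groups, so the 3 libraries with PD173074, the 5 without PD173074 and the 3 of the 2D culture were counted as repeat runs and each group as 1 sample.

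Since each group was 1 sample, differences between groups could not be set against replicates, and no test between conditions was made. Levels are in CPM, UMI counts of a gene scaled to the same total in every run and averaged over runs, and the 95% intervals are exact and cover counting error only. A gene was called higher or lower when it reached 10 CPM in the higher group and the whole interval of its ratio lay beyond 1.5-fold. Runs held 36127841 to 37765195 UMIs with PD173074, 12266166 to 24495291 without PD173074 and 43908067 to 46304366 in the 2D culture. Filtered cells numbered 4597 with PD173074, 3534 without PD173074 and 8183 in the 2D culture, of which 3489, 3159 and 7238 lay in the 10 clusters that carried cardiomyocyte markers. All 11 genes of the cardiomyocyte marker list were above 10 CPM in these cells in every group. The same list was used to pick the clusters, so this is no separate check. TNNT2, a thin filament protein of that list, stood at 2676 CPM with PD173074, 3065 CPM without PD173074 and 2080 CPM in the 2D culture. It stood at 382 CPM in cartilage-like and 394 CPM in stromal-like cells.

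The promoters of 4 members are shown, those of the 3 genes called different in the comparison of cardioids and that of HADHB, which starts 306 bases from HADHA in the opposite direction. Each is the 250 bases before the gene's start in RefSeq (GRCh38.p14), written 5′ to 3′ on the gene's own strand. Capitals mark every match to 5 motifs, searched on both strands: GGGCGG (GC box), CCAAT (bound by NF-Y), TATAAA (bound by TBP), ACGTG (hypoxia element core) and AGGTCA (core of nuclear receptor sites).
CD36, chr7:80601957-80602206, plus strand: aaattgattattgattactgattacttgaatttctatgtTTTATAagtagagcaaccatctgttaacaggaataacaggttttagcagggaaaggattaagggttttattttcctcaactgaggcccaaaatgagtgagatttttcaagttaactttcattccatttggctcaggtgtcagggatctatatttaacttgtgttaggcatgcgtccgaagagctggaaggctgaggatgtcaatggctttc
ACADS, chr12:120725576-120725825, plus strand: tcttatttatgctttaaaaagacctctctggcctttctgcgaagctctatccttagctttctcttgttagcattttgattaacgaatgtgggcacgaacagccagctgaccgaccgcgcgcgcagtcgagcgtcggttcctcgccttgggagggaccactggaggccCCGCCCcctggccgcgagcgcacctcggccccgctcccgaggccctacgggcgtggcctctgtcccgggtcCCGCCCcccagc
ACADL, chr2:210225448-210225697, minus strand: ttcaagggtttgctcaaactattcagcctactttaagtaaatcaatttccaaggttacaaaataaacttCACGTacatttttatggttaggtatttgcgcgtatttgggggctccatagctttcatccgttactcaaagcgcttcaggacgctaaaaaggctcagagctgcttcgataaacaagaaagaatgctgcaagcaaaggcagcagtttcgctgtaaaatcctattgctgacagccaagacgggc
HADHB, chr2:26244689-26244938, plus strand: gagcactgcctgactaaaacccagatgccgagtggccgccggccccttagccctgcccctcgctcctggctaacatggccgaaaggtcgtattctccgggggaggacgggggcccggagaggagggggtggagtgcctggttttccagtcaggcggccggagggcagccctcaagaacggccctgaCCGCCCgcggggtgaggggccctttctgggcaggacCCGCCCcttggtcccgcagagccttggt

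Promoters were found for 28 of the 32 members. GC boxes stood in 20 of these 28, among them ACADS, HADHA and HADHB, and in 42.3% of the 27305 RefSeq promoters. The windows of HADHA and HADHB overlap, and the only GC box of HADHA is the same site as 1 of the 2 of HADHB. ACGTG stood in 4 of the 28 (ACADL, ETFB, FABP3 and PPARGC1A) and in 18.7% of all promoters. CCAAT stood in 8 of the 28, against 33% of all, and TATAAA in ACADVL and CD36 alone, against 11.1% of all. AGGTCA stood in 0 of the 28 and in 12.1% of all promoters. For ACSL1, ETFB, PPARGC1B and SLC27A1 the window lay inside the annotated span of the gene, before a start site downstream of its first. These matches describe letters in a window of 250 bases only.

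The first comparison asked how the genes stood in cardiomyocyte-like cells of cardioids with PD173074 against cardioids without PD173074. CD36 was higher with PD173074, ACADS and ACADL were lower, and the other 23 of the 26 members at 10 CPM were not called. The call rule was met in the higher direction by 5.5% and in the lower direction by 4.56% of the 10601 genes at that level. The median log2 ratio was -0.16 over the 32 members and -0.07 over all genes at 10 CPM, and 22 of the 26 members lay within 0.5 of 0 on the log2 scale.

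**Figure D1:**
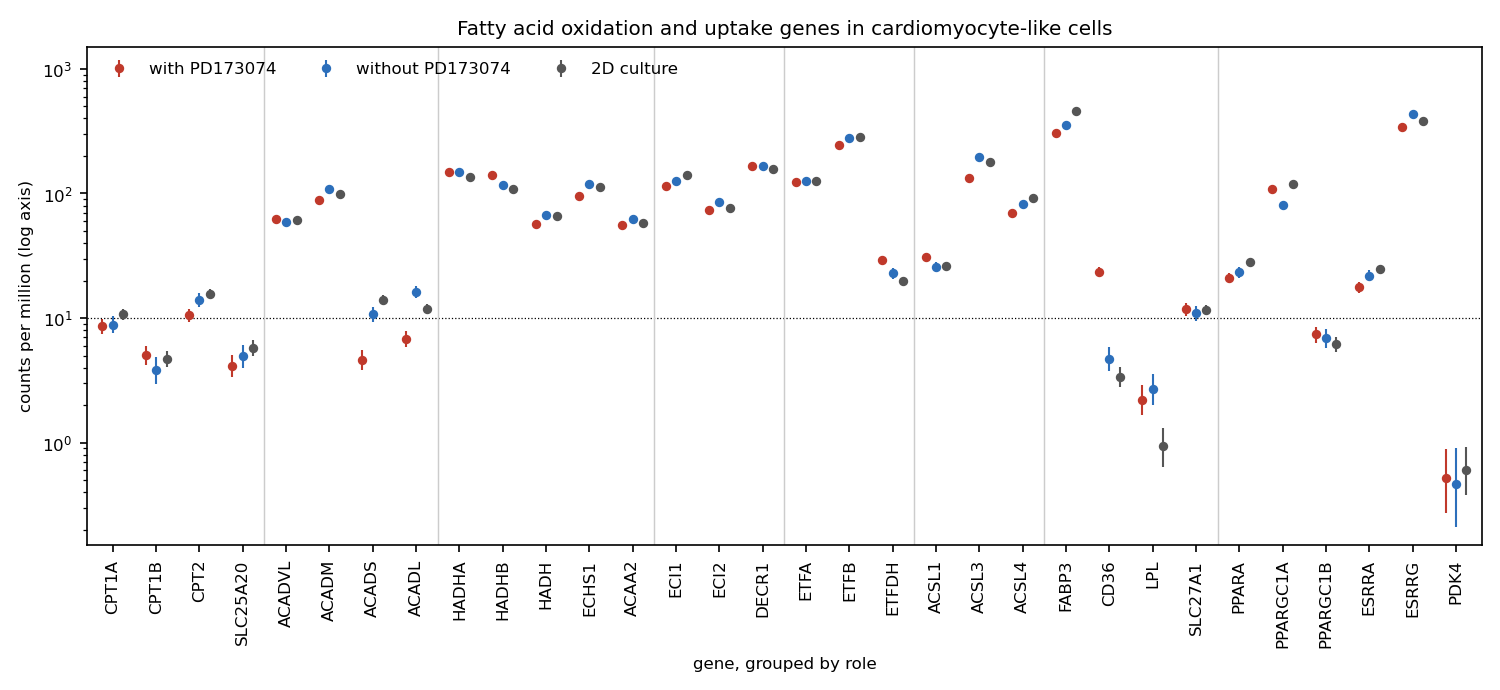
CPM of the 32 genes on a log axis in cardiomyocyte-like cells with PD173074, without PD173074 and in 2D culture, grouped by role; points are means over runs, bars are 95% counting intervals and the dotted line is 10 CPM. CD36 stood at 23.6 CPM with PD173074, 4.71 CPM without it and 3.37 CPM in 2D culture, while HADHA stood at 148, 149 and 136 CPM.

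CD36, the membrane protein that takes up long-chain fatty acids (chr7:80602207-80679274, plus strand), had 23.6 CPM with PD173074 (21.7 to 25.6), against 4.71 CPM without PD173074 (3.76 to 5.82) and 3.37 CPM in 2D culture (2.79 to 4.03). The runs of a group lay at 23.2 to 24.1, 4.46 to 4.93 and 3.13 to 3.52 CPM in the same order. As repeat runs of the same droplets, they show the spread of repeat sequencing and not that between cultures. The log2 ratio was 2.33 with PD173074 against without it (2.00 to 2.67). After each cell of run 1 was thinned to 2000 UMIs, a CD36 UMI was seen in 4.21% of 3208 cardiomyocyte-like cells with PD173074, 1.04% of 2986 without PD173074 and 0.664% of 6625 in 2D culture. Unthinned, these shares were 11.4%, 2.51% and 1.52%. Cartilage-like cells, taken as cells that should lack CD36, gave thinned shares of 0.998% of 501 cells with PD173074, 0 of 140 without PD173074 (an exact upper bound of 2.60%) and 0.422% of 237 in 2D culture. Median depths were 6506 UMIs per cardiomyocyte-like cell and 7955 per cartilage-like cell with PD173074, 5475.5 and 5151 without PD173074, and 4393 and 5167 in 2D culture. The share in cardiomyocyte-like cells was thus above that background with PD173074, and was not separable from it at this depth without PD173074 or in 2D culture.

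The remaining genes of uptake and binding were not called between the cardioids. FABP3, the heart fatty acid binding protein of the cytosol, had 306 CPM with PD173074, 353 CPM without PD173074 and 461 CPM in 2D culture. Its log2 ratio was -0.21 between the cardioids, with an interval of -0.26 to -0.16 that stayed inside the 1.5-fold bounds. SLC27A1, a transport protein that couples uptake to activation, had 11.7, 11.0 and 11.6 CPM with PD173074, without it and in 2D culture, levels whose counting intervals overlapped. LPL, the lipase that frees fatty acids from lipoproteins, stood below 10 CPM in every group, at 2.20 CPM with PD173074, 2.69 CPM without PD173074 and 0.933 CPM in 2D culture. It was expressed too little in the pooled class for a call.

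The synthetases ACSL1, ACSL3 and ACSL4 join coenzyme A to long fatty acids. ACSL3 had 134 CPM with PD173074, against 196 CPM without PD173074 and 180 CPM in 2D culture. Its log2 ratio between the cardioids was -0.55 (-0.62 to -0.48), short of a call because the interval reached into the 1.5-fold bounds. ACSL1 and ACSL4 had log2 ratios of 0.27 and -0.23, both well inside them.

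The carnitine shuttle was thinly measured. CPT1A, the liver form of the outer-membrane transferase that commits fatty acids to oxidation, had 8.56 CPM with PD173074, 8.87 CPM without PD173074 and 10.7 CPM in 2D culture. CPT1B, the form named for muscle, had 5.03, 3.81 and 4.70 CPM in the same order. It shares exon bases with the gene CHKB-CPT1B on the same strand in GENCODE release 29, and the effect on its count was not tested. Neither form was separable between the cardioids, with log2 intervals of -0.35 to 0.26 for CPT1A and -0.04 to 0.85 for CPT1B. CPT2, the inner-membrane transferase, had 10.5 CPM with PD173074, against 13.98 CPM without PD173074 and 15.7 CPM in 2D culture. SLC25A20, the carrier of acylcarnitines across the inner membrane, stayed below 6 CPM in each group.

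The acyl-CoA dehydrogenases open each round of beta-oxidation and differ in the chain length they prefer. ACADS, for short chains (chr12:120725826-120740008, plus strand), had 4.64 CPM with PD173074 (3.82 to 5.58), against 10.7 CPM without PD173074 (9.29 to 12.4) and 14.01 CPM in 2D culture (12.8 to 15.3). ACADL, for long chains (chr2:210187923-210225447, minus strand), had 6.80 CPM with PD173074 (5.81 to 7.92), against 16.2 CPM without PD173074 (14.4 to 18.2) and 11.9 CPM in 2D culture (10.7 to 13.0). Both were therefore lowest with PD173074, by a log2 ratio of -1.21 (-1.56 to -0.87) for ACADS and -1.25 (-1.54 to -0.97) for ACADL against cardioids without PD173074. ACADL shares exon bases with a long non-coding RNA on the opposite strand in GENCODE release 29, and the sources used here do not state whether counting used strand.

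The more strongly counted dehydrogenases were not called. ACADM, for medium chains, had 88.1 CPM with PD173074, 108 CPM without PD173074 and 98.6 CPM in 2D culture, a log2 ratio of -0.30 (-0.39 to -0.21) between the cardioids, and was thus also lowest with PD173074. ACADVL, for very long chains, had 62.8, 58.8 and 61.1 CPM in the same order, a log2 ratio of 0.09 whose interval (-0.02 to 0.21) held 0.

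The later steps of the spiral were close to level. HADHA and HADHB encode the subunits of the trifunctional protein, which handles long chains. HADHA had 148 CPM with PD173074, 149 CPM without PD173074 and 136 CPM in 2D culture, while HADHB had 141, 117 and 108 CPM. The paired genes therefore had pooled log2 ratios between the cardioids of -0.01 (-0.09 to 0.06) and 0.27 (0.19 to 0.35), intervals that did not meet. Over the 5 clusters both cardioid groups shared, the means were -0.16 (-0.30 to -0.02) and 0.02 (-0.13 to 0.17), intervals that overlapped. Single runs without PD173074 lay at 139 to 176 CPM for HADHA. ECHS1, the short-chain enoyl-CoA hydratase, had 95.4 CPM with PD173074, against 120 CPM without PD173074 and 112 CPM in 2D culture. HADH, the hydroxyacyl-CoA dehydrogenase, and ACAA2, the thiolase, had log2 ratios of -0.22 and -0.17.

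ECI1, ECI2 and DECR1, which rearrange the double bonds of unsaturated chains, had log2 ratios between the cardioids of -0.12, -0.23 and 0.01. ETFA and ETFB, the subunits of the electron transfer flavoprotein, had -0.02 and -0.19. ETFDH, which hands these electrons to ubiquinone, had 29.2 CPM with PD173074, against 22.9 CPM without PD173074 and 19.9 CPM in 2D culture, a log2 ratio of 0.35 between the cardioids. None of these 6 genes was called. The 15 genes of these mitochondrial steps together summed to 1412 CPM with PD173074 (1397 to 1427), 1513 CPM without PD173074 (1495 to 1531) and 1472 CPM in 2D culture (1460 to 1485). The sum was thus lowest with PD173074, and its counting intervals did not overlap between groups. Over all genes at 10 CPM the median log2 ratio between the cardioids was -0.07, a shift the sums were not adjusted for. Single runs lay at 1405 to 1418 CPM with PD173074, 1474 to 1607 CPM without PD173074 and 1469 to 1476 CPM in 2D culture, so the runs without PD173074 overlapped those of the 2D culture.

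Among the regulators no gene was called. PPARA, the nuclear receptor that responds to fatty acids, had 21.0 CPM with PD173074, 23.3 CPM without PD173074 and 28.3 CPM in 2D culture. PPARGC1A, the PGC-1 alpha coactivator of mitochondrial genes, had 109 CPM with PD173074, against 81.5 CPM without PD173074 and 119 CPM in 2D culture, a log2 ratio of 0.42 (0.33 to 0.51) between the cardioids. ESRRA, estrogen-related receptor alpha, had 17.6, 21.8 and 24.9 CPM with PD173074, without it and in 2D culture. The order of these 3 regulators over the groups was therefore not the same. ESRRG, estrogen-related receptor gamma, had 342 CPM with PD173074, 434 CPM without PD173074 and 381 CPM in 2D culture, a log2 ratio of -0.34 (-0.39 to -0.30) between the cardioids. That sign did not hold over the 5 clusters both cardioid groups shared, where the mean log2 ratio of ESRRG was 0.05 (-0.04 to 0.14), above 0 in 4 of them. PDK4, the kinase that closes pyruvate dehydrogenase when fatty acids are burned, was near the limit of detection, at 0.520, 0.469 and 0.606 CPM. PPARGC1B, the related coactivator, lay below 8 CPM in each group.

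**Figure D2:**
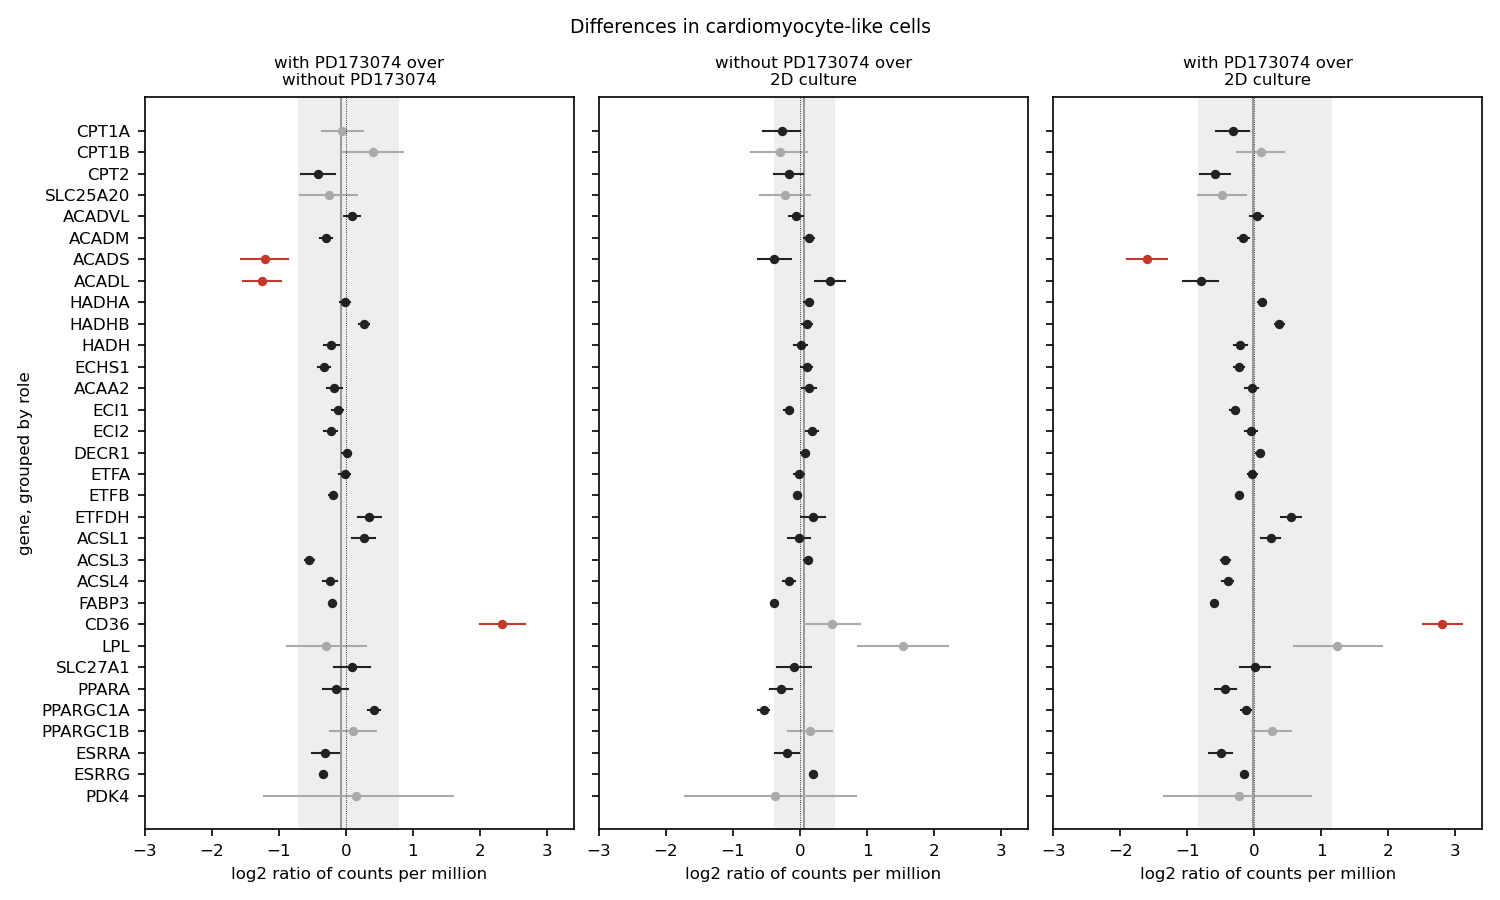
Log2 ratio of CPM for each of the 32 genes in cardiomyocyte-like cells, in 3 comparisons; bars are 95% counting intervals, red marks called genes, grey genes below 10 CPM in both groups, and the shaded band spans the 5th to 95th percentile of all genes at 10 CPM with their median as a line. CD36 lies at 2.33, ACADS at -1.21 and ACADL at -1.25 in the left panel, outside a band of -0.70 to 0.78.

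Cardioids without PD173074 were next set against the 2D culture. Of 26 members at 10 CPM, 0 were called higher and 0 lower, where 2.56% of 10423 genes were called higher and 0.71% lower. With 1 sample per group no unadjusted p exists beside these counts. The median log2 ratio was -0.01 over the members and 0.05 over all genes, and 25 of the 26 members lay within 0.5 of 0. PPARGC1A lay farthest from 0 among members at 10 CPM, at 81.5 CPM without PD173074 and 119 CPM in 2D culture, a log2 ratio of -0.54 (-0.63 to -0.46). FABP3 followed in the lower direction with ACADS, at log2 ratios of -0.38 each, while ACADL stood at 0.45 (0.23 to 0.67).

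In the comparison of cardioids with PD173074 and the 2D culture, which shares its cells with the other comparisons, CD36 was called higher and ACADS lower among 27 members at 10 CPM. Over 10672 genes 8.58% were called higher and 6.34% lower. The log2 ratio was 2.81 (2.52 to 3.11) for CD36 and -1.59 (-1.90 to -1.30) for ACADS. FABP3 stood at -0.59 (-0.63 to -0.55), with its interval across the bound of 1.5-fold, and ACADL at -0.80 (-1.07 to -0.54), likewise not called. The median over the 32 members was -0.16, against -0.01 over all genes.

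The cardiomyocyte-like cells of the groups lay in different clusters, although the 32 genes and other metabolic lists had been left out of the clustering. With PD173074, 50.01% lay in atrial-like cluster 2, 18.7% in cluster 5 (led by TFPI2) and 16.9% in cluster 9, which is like sinus node or canal cells and led by SHOX2. Without PD173074, 43.4% lay in cluster 4, also like sinus node or canal cells and led by TBX3, and 9.50% in cluster 2. In 2D culture 31.3% lay in cluster 1 (RGS4, ALDH1A2), 31.0% in cluster 0 (GRIA4, FGF18) and 21.3% in ventricular-like cluster 3 (CKM, MYL3). Ventricular-like cluster 7 (MYL2, MYH7) held 7.51%, 3.17% and 6.38% of the cells with PD173074, without it and in 2D culture. It was named over all groups together. In the whole cardiomyocyte-like class MYL2 had 84.4 UMIs per run with PD173074, 687 without it and 3767 in 2D culture. MYH7 had 298, 735 and 4727. The 262 cells of cluster 7 with PD173074 therefore held few MYL2 UMIs each, and the name holds less for them. Clusters 5 and 7, and cluster 12 of dividing cells, were the only cardiomyocyte-like clusters with at least 50 cells of each group.

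When log2 ratios were averaged over the 5 clusters that held at least 50 cells of both cardioid groups (clusters 2, 5, 7, 9 and 12), no member was called in either direction. On that measure 0.305% of 10477 genes were called higher and 0.496% lower. CD36 had a mean log2 ratio of 0.77 (0.19 to 1.36), against 2.33 over the pooled class, and was higher with PD173074 in 4 of the 5 clusters. ACADS had -0.55 (-1.17 to 0.07) and ACADL -0.64 (-1.46 to 0.18), each lower in 4 of the 5, with intervals that held 0. The pooled differences of these 3 genes were therefore larger than the means over shared clusters. ACADS averaged 5.71 CPM with PD173074 and 8.24 CPM without PD173074 over these clusters, below 10 CPM, so it could not be called. ACSL3 had -0.15 (-0.29 to -0.01), against -0.55 over the pooled class. The median was -0.14 over the members and -0.03 over all genes on this measure.

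**Figure D3:**
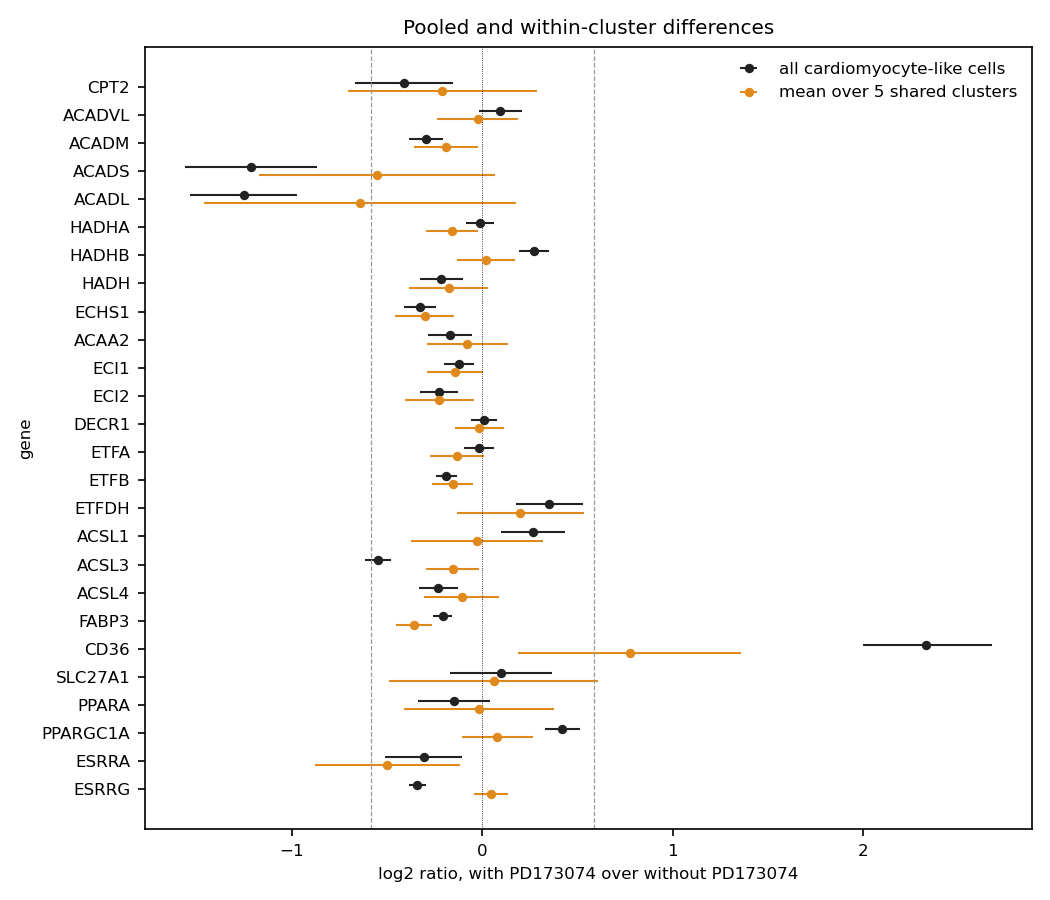
Log2 ratio with PD173074 over without PD173074 for the 26 members at 10 CPM, over all cardiomyocyte-like cells (black) and as the mean over the 5 clusters both groups shared (orange); bars are 95% counting intervals and dashed lines mark 1.5-fold. CD36 lies at 2.33 over all cells and at 0.77 over shared clusters, ACADS at -1.21 and -0.55, and ACADL at -1.25 and -0.64. The 26 members reached 10 CPM over all cells, and ACADS did not over the shared clusters.

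Of the 25 members at 10 CPM on that measure, 5 were lower with PD173074 in 5 of 5 clusters and 0 were higher in all, against 12.2% of all genes lower and 7.35% higher. These were HADHA, HADH, ECHS1, ECI2 and FABP3, with mean log2 ratios of -0.16, -0.18, -0.30, -0.23 and -0.36. The interval of ECHS1 ran from -0.46 to -0.15 and that of FABP3 from -0.45 to -0.26, while that of HADH, from -0.38 to 0.03, held 0. SLC25A20, below 10 CPM, was also lower in 5 of 5, at -0.62 (-1.43 to 0.19). The clusters of a group come from 1 sample and are not replicates.

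Over the 8 clusters shared by cardioids without PD173074 and the 2D culture, 0 members were called, against 0.163% of 10433 genes higher and 0.0958% lower. ACADM and HADHA were higher without PD173074 in 8 of 8 clusters, as were 3.42% of all genes, with mean log2 ratios of 0.19 (0.03 to 0.34) and 0.21 (0.08 to 0.35). FABP3 and PPARGC1A were lower in 7 of 8, at -0.30 and -0.36. In the pooled class, run 3 without PD173074 had HADHA at 175.6 CPM, above its other runs at 138.8 to 144.2 CPM. That run had ACADM at 102 CPM and FABP3 at 333.3 CPM, below the other runs (108.9 to 111.1 and 355.5 to 361.8 CPM). The part of run 3 in these means was not tested. Over the 3 clusters shared by cardioids with PD173074 and the 2D culture, FABP3 was called lower at -0.90 (-1.05 to -0.75) and no member was called higher, against 2.04% of 10696 genes lower and 1.8% higher. CD36 had a mean of 1.44 (0.18 to 2.69) there, against 2.81 over the pooled class, and was not called. ACADS had a mean of -0.22 (-1.25 to 0.81), against -1.59 over the pooled class. It averaged 7.14 CPM with PD173074 and 7.74 CPM in 2D culture over these clusters, below 10 CPM, so it could not be called.

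Within single clusters the pattern depended on the gene. In cluster 2 CD36 had 37.7 CPM with PD173074 and 22.0 CPM without PD173074, a log2 ratio of 0.78 (0.21 to 1.41) that was not called. In cluster 12, of dividing cells, it had 27.0 CPM with PD173074, against 4.16 CPM without PD173074 and 2.40 CPM in 2D culture. It was called higher between the cardioids at 2.70 (1.13 to 4.85), where 1.76% of 10508 genes were. CD36 was also called higher there against the 2D culture, where the share of all genes called was not counted. In ventricular-like cluster 7 the order was turned, with 8.81 CPM with PD173074, 16.9 CPM without PD173074 and 9.96 CPM in 2D culture, though the intervals overlapped. CD36 was thus not raised with PD173074 in every cluster.

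ACADL differed most in cluster 5, where it had 3.84 CPM with PD173074, against 24.98 CPM without PD173074 and 26.4 CPM in 2D culture. It was called lower there at a log2 ratio of -2.70 (-3.64 to -1.82), as was LPL at 2.98 CPM with PD173074 and 12.6 CPM without PD173074, where 1.15% of 10460 genes were. In cluster 7 ACADL had 34.3, 28.8 and 24.1 CPM with PD173074, without it and in 2D culture, and in cluster 2 it had 4.43 and 5.29 CPM with PD173074 and without it. ACADS had 3.47 and 2.88 CPM in cluster 2, and 3.68 and 6.24 CPM in cluster 9, with PD173074 and without it. It was thus low in cluster 2 in both cardioid groups.

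Cluster 7 carried the clearest differences of FABP3 and PPARGC1A. FABP3 had 379 CPM with PD173074, against 822 CPM without PD173074 and 1061 CPM in 2D culture, log2 ratios of -1.12 (-1.29 to -0.94) and -1.48 (-1.61 to -1.36). PPARGC1A had 35.2 CPM with PD173074, against 81.1 CPM without PD173074 and 97.3 CPM in 2D culture, log2 ratios of -1.21 (-1.79 to -0.61) and -1.47 (-1.89 to -1.06). Both genes were called lower against each other group, where 1.67% of 10329 genes were called in either direction against cardioids without PD173074 and 6.93% of 10318 against the 2D culture. In the other 4 clusters shared by the cardioids PPARGC1A had log2 ratios above 0, with 132 CPM with PD173074 and 103 CPM without PD173074 in cluster 5. The cluster held 262, 100 and 462 cells in the 3 groups. Its cells with PD173074 held few MYL2 UMIs, so these comparisons may set unlike cells side by side.

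**Figure D4:**
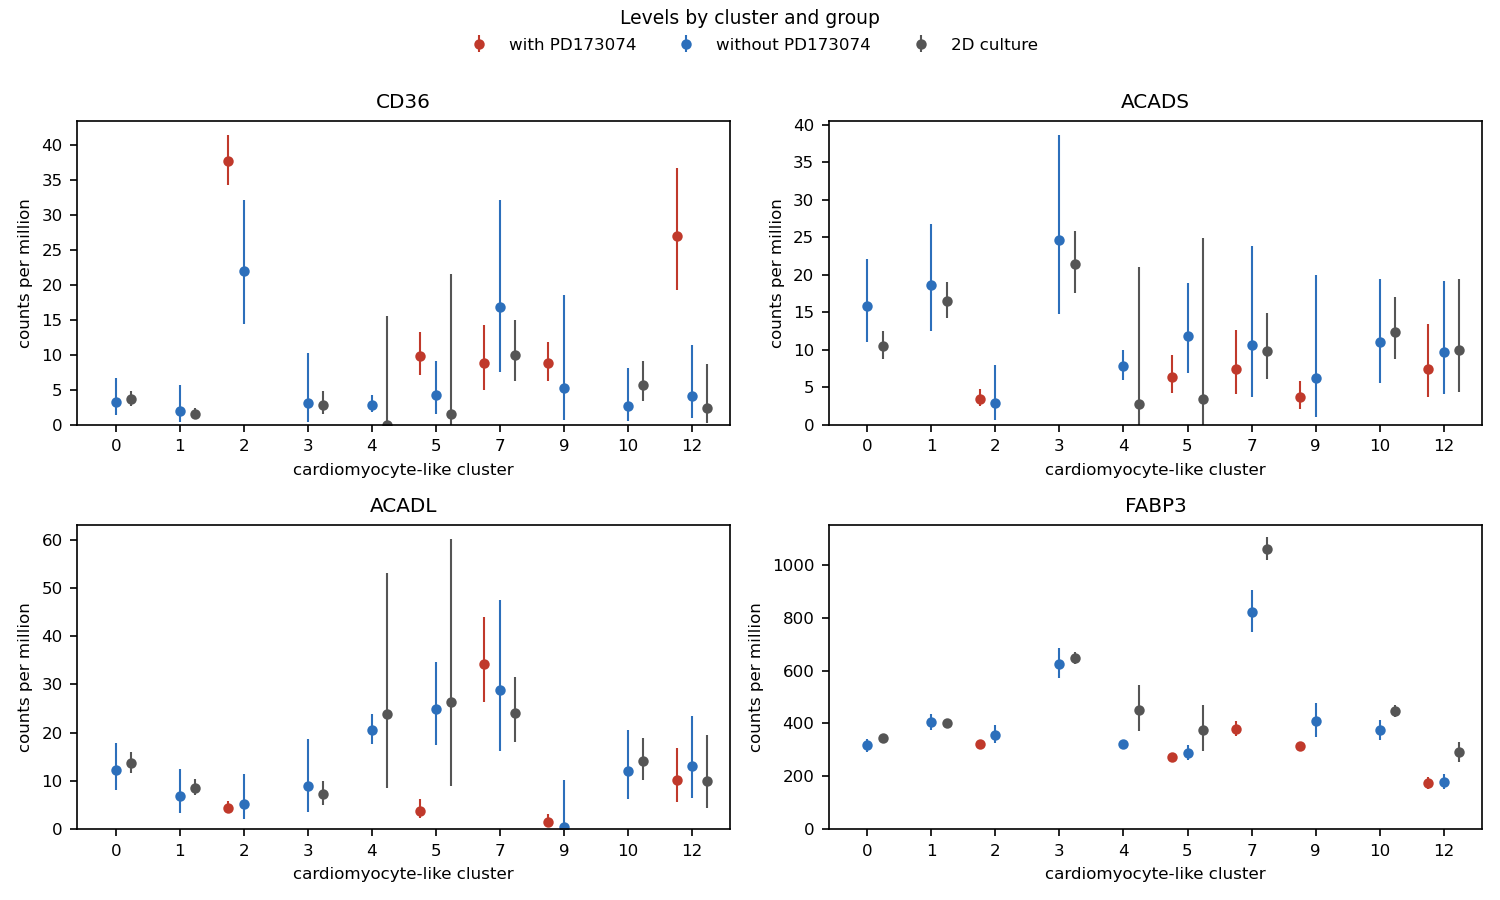
CPM of CD36, ACADS, ACADL and FABP3 in each cardiomyocyte-like cluster, with PD173074, without PD173074 and in 2D culture; points are means over runs where a group had at least 50 cells and bars are 95% counting intervals. FABP3 in cluster 7 stood at 379, 822 and 1061 CPM in that order of groups, and CD36 in cluster 2 at 37.7 and 22.0 CPM in the cardioids.

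Across clusters, each taken as the mean of the groups with at least 50 cells there, 5 members spread most among those that reached 10 CPM. ACADL ran from 37.6 CPM in endoderm-like cluster 13 to 1.001 CPM in cluster 9, and among cardiomyocyte-like clusters it was highest in cluster 7, at 29.1 CPM. FABP3 ran from 754 CPM in cluster 7 to 30.3 CPM in epithelial-like cluster 11. CD36 ran from 29.8 CPM in cluster 2 to 1.32 CPM in stromal-like cluster 8. PPARGC1B ran from 11.1 CPM in cluster 9 to 0.570 CPM in cluster 11, and ESRRG from 494 CPM in cluster 0 to 40.4 CPM in cluster 11. For 13 of the 28 members that reached 10 CPM in a cardiomyocyte-like cluster, the highest such cluster had at least 2-fold the level of the lowest.

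The 15 genes of the mitochondrial steps summed to 1881 CPM in ventricular-like cluster 3, and to between 1383 and 1575 CPM in the other cardiomyocyte-like clusters. In the other classes the sum was 1127 CPM in cartilage-like, 923 CPM in stromal-like, 990 CPM in epithelial-like and 1578 CPM in endoderm-like cells. ETFB and ECI1 were highest in cluster 3, at 411 and 202 CPM, and ACAA2 in endoderm-like cells, at 146 CPM. PPARGC1A, at 140 CPM in cluster 0, was lowest in endoderm-like cells, at 12.8 CPM.

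**Figure D5:**
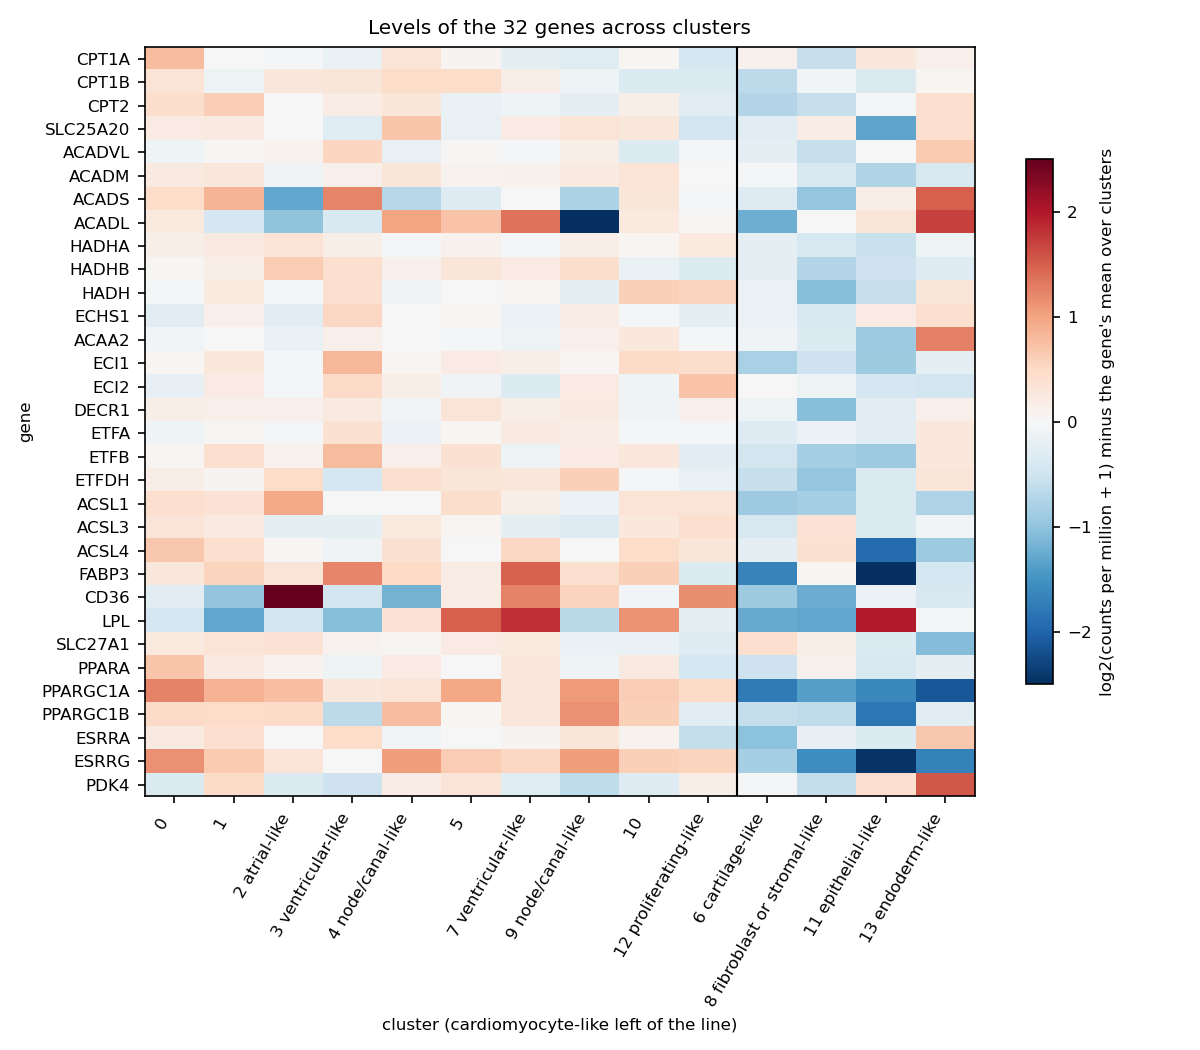
Level of each of the 32 genes in 14 clusters, as log2(CPM + 1) minus the gene's mean over clusters, with the 10 cardiomyocyte-like clusters on the left. CD36 is highest in atrial-like cluster 2 at 29.8 CPM, FABP3 in ventricular-like cluster 7 at 754 CPM, and PPARGC1A and ESRRG are lower in all 4 other classes than in any cardiomyocyte-like cluster.

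Neighbouring parts of energy metabolism were described by the same rule in cardiomyocyte-like cells with PD173074 against those without PD173074. Of 30 further genes of fatty acid oxidation and uptake, 20 reached 10 CPM, and of these 1 was called higher and 1 lower. FABP5, an epidermal type fatty acid binding protein, had 136 CPM with PD173074, against 61.3 CPM without PD173074 and 41.0 CPM in 2D culture. SLC27A6, a fatty acid transport protein expressed in heart, had 81.9 CPM with PD173074, against 262 CPM without PD173074 and 171 CPM in 2D culture. Their log2 ratios between the cardioids were 1.15 (1.05 to 1.248) and -1.68 (-1.76 to -1.60), and over the 5 shared clusters 0.06 (-0.08 to 0.21) and -0.66 (-0.91 to -0.42), neither of them called. SLC27A6 was lower with PD173074 in 5 of 5 shared clusters. SLC27A6 shares exon bases with FBN2, and FABP5 with an antisense gene, on the opposite strand.

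The other oxidation genes were close to level. Of 12 peroxisomal oxidation genes, 11 genes of pyruvate entry and 26 nuclear genes of the respiratory chain at 10 CPM, 0 were called, and their median log2 ratios were -0.10, -0.14 and -0.02. Of 17 TCA cycle genes, IDH3A, a subunit of isocitrate dehydrogenase, was called lower at 51.4 CPM with PD173074 and 83.4 CPM without PD173074. Of 13 nuclear receptors and partners, RXRG, a heterodimer partner of PPARA, was called lower at 19.0 CPM with PD173074, against 56.9 CPM without PD173074 and 69.5 CPM in 2D culture, a log2 ratio of -1.58, and NR2F1 and NR2F2, the atrial COUP-TF receptors, were called higher. HILPDA, a lipid droplet protein, was the only 1 of 10 PPAR target and lipid droplet genes called, at 17.9 CPM with PD173074 and 38.7 CPM without PD173074. Among 13 genes of fatty acid synthesis, the elongase ELOVL5 was called higher (90.7 and 54.4 CPM) and ELOVL6 lower (41.6 and 104 CPM). Over the 5 shared clusters RXRG had a mean log2 ratio of -0.76 (-1.10 to -0.41), HILPDA -0.78, IDH3A -0.32, ELOVL5 0.25 and ELOVL6 -0.21, none of them called. NR2F1 and NR2F2 were called higher on that measure too, at 1.46 and 0.76.

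Glucose breakdown was set beside fat breakdown. Of 22 glycolysis genes, 11 were called lower with PD173074 and 1 higher, and the median log2 ratio was -0.63. LDHA, lactate dehydrogenase A, had 729 CPM with PD173074, against 1878 CPM without PD173074 and 1626 CPM in 2D culture. ENO1, an enolase, had a log2 ratio of -1.38 and PGK1, phosphoglycerate kinase, -1.35. Of 16 hypoxia response genes 9 were called lower, led by EGLN3, a prolyl hydroxylase, at -1.63, with a median of -0.71. Of 13 immediate early genes, 9 were called higher, with a median of 1.40. These pooled differences were also smaller over the 5 shared clusters, where 3 of 22 glycolysis genes were called lower with a median of -0.34, 2 of 14 hypoxia response genes were called lower with a median of -0.30, and 2 of 13 immediate early genes were called higher with a median of 0.43. In single shared clusters the medians lay between -0.65 and -0.08 for glycolysis, between -0.89 and 0.13 for hypoxia response and between 0.11 and 1.01 for immediate early genes.

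Marker lists of other cells differed between the groups inside the cardiomyocyte-like class, in both directions. The 6 smooth muscle markers summed to 2778 CPM with PD173074, 1395 CPM without PD173074 and 1498 CPM in 2D culture. A single marker gave 2179 of the 2778 CPM. The 9 stromal markers summed to 757, 256 and 269 CPM. Sums lowest with PD173074 were those of neural (356, 617 and 695 CPM) and endothelial markers (66.6, 128 and 158 CPM). Endoderm (13.0, 36.6 and 51.6 CPM) and epithelial markers (355, 435 and 421 CPM) were also lowest there. Cartilage markers summed to 129, 104 and 126 CPM. COL1A1 was at 70.7, 14.2 and 17.0 CPM, MYH11 at 30.6, 7.02 and 4.603 CPM, and immune markers were at most 1.29 CPM each. The 8 atrial markers summed to 8882, 3173 and 2000 CPM and the 8 ventricular markers to 326, 823 and 1237 CPM. Median mitochondrial shares were 4.10%, 3.53% and 5.15% of UMIs per cell. The part of these in the differences of CD36, ACADS and ACADL was not tested.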

How the data were processed

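The 11 libraries of H9 cells were made with a droplet kit for 3′ ends of single-cell RNA, in version 2 or 3 chemistry that the labels do not assign to libraries. The authors deposited raw UMI counts per gene and barcode, for which the submitters' processing notes name Cell Ranger 7.0.0 and hg38. The sources used here do not give the annotation release or whether strand was used. All matrices held 0 columns of samples outside this series.

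Runs of a group were averaged. Cells were kept with 500 or more genes, 1000 or more UMIs per run and no more than 30% mitochondrial UMIs. No doublet caller was used and no cell was removed as a doublet. In scanpy 1.11.5, 2000 variable genes, without the 32 members and the other metabolic lists, gave 30 principal components, 15 neighbours and, with leidenalg 0.10.2 at resolution 0.6, 15 clusters. Clusters above the midpoint of the cardiomyocyte marker list were taken as cardiomyocyte-like, unless another class had more markers among their 10 leading genes, and other names needed 3 markers among 100 leading genes. Names were rebuilt here, and may differ from the study's.

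CPM and ratios were computed here from the deposited counts, with exact intervals (scipy 1.17.1) that treat UMIs as independent and leave out variation between cultures. Means of log2 ratios over shared clusters used counts with 0.5 added and normal intervals. Named genes were those called in a comparison, 12 fixed genes of the pathway, and up to 3 called genes of each other list. The members, lists and rules were chosen with earlier results of these data known. Alternatives were scalings, floors, folds, cell filters, cell sets, clustering settings and each run left out.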

Additional observations from a re-analysis of the deposited data

Results flagged for a closer look

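Over the 5 runs without PD173074, the level in cardiomyocyte-like cells of run 3 stood apart from the other 4 runs for 11 of the 27 members at 10 CPM (40.7%), and for 19.3% of the 10780 genes at that level, by a gap of more than 0.71 of the runs' whole range, which chance gives for about 5% of such sets of runs. Run 3 was the shallowest run, with 12266166 UMIs, and the runs hold the same droplets. Higher in run 3 were ACADVL at 70.6 CPM (other runs 54.2 to 57.2), HADHA at 175.6 CPM (138.8 to 144.2), ACAA2 at 68.8 CPM (60.1 to 62.5), ECI2 at 94.3 CPM (82.7 to 85.4), ETFB at 302.8 CPM (271 to 274.8) and ACSL1 at 29.9 CPM (23.9 to 25.4). Lower in run 3 were ACADM at 102 CPM (108.9 to 111.1), ETFA at 115.1 CPM (125.7 to 129.7), ACSL3 at 184 CPM (197.7 to 199.7), FABP3 at 333.3 CPM (355.5 to 361.8) and ESRRA at 19.3 CPM (22.0 to 23.1). The depth of run 3 moved with these values and its part in them was not tested. Without run 3 every call on the members was as with it, and the median log2 ratio of the members with PD173074 against without it was -0.14.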

How the results depend on the processing

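No paired analysis was possible because the runs of a group are the same droplets and each group is 1 sample. Leaving out each run in turn left every count of calls on the members as it was: 1 higher and 2 lower with PD173074 against without it, 0 and 0 without it against 2D culture, and 1 and 1 with it against 2D culture. The median log2 ratios then lay at -0.18 to -0.14, -0.03 to 0.00 and -0.16 to -0.14.

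With log2 ratios averaged over shared clusters, 0 members were called higher and 0 lower between the cardioids. With PD173074 against 2D culture 0 were higher on that measure, and the median of that comparison turned to 0.0312. ACADS lay below 10 CPM over the shared clusters in both of these comparisons, so it could not be called. The ratio of mean CPM over shared clusters, chosen after seeing the data, gave 0 and 0 between the cardioids, 0 higher against 2D culture and a median of 0.0764. Between the cardioids, 0 members were lower at a floor of 20 CPM, 0 at a fold of 2, 1 over all filtered cells and 1 without cells in clusters of another group. The lowest fold threshold tried gave 2 higher there, 2 lower without PD173074 against 2D culture, and 2 higher and 6 lower with PD173074 against 2D culture. Without PD173074 against 2D culture, 1 was lower without cells in clusters of another group. With PD173074 against 2D culture, 0 were lower at a floor of 20 CPM and 2 with cells weighted equally, over all filtered cells, without cluster 0 and without cluster 7, these last 2 chosen after seeing the data. Of the 28 members at 10 CPM, 13 spanned 2-fold over cardiomyocyte-like clusters, 6 at resolution 0.3 and 19 of 29 at resolution 1.0. The floor and fold settings change the rule itself, and for the other settings the cause was not tested.

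The remaining settings left each count within 1.5 times and each median within counting error. Depth limits CPT1A, CPT1B, SLC25A20, LPL, PPARGC1B and PDK4, and clusters with few cells of a group. A change in cell state and a change in the mix of states cannot be told apart in pooled values, nor can culture and treatment with 1 sample per group.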

Other observations

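The endoderm-like cluster held 55 cells with PD173074 and 74 without PD173074, at median depths of 16777.5 and 7326 UMIs among the cells used for thinning. Of 25 members at 10 CPM there, 3 were called higher with PD173074 and 2 lower, and only these are given. The share of all genes called in this cluster was not counted. Of 17 hypoxia response genes 12 were called lower there, and of 22 glycolysis genes 7 lower and 1 higher. FABP3 had 348 CPM with PD173074 and 53.1 CPM without PD173074, ACAA2 206 and 86.1 CPM, and PPARGC1A 21.7 and 3.81 CPM. ACADL had 15.3 and 59.9 CPM in the same order, and ACSL3 96.7 and 210 CPM. After thinning, FABP3 was seen in 32.7% of 52 such cells with PD173074 and 6.94% of 72 without PD173074. These shares come from the same cells as the call on FABP3. Cartilage-like cells had ESRRG at 198 CPM with PD173074, 112 CPM without PD173074 and 67.7 CPM in 2D culture. There ESRRG was called higher with PD173074 than in 2D culture, as 1 of 22 members, and was called in neither other comparison. The share of all genes called in cartilage-like cells was not counted. LPL reached 14.6 CPM in ventricular-like cluster 7 with PD173074, against 4.85 CPM without PD173074 and 5.01 CPM in 2D culture. Neither of these LPL differences in cluster 7 was called, and in cluster 5 LPL was called lower with PD173074 than without it. In cluster 12 SLC27A6 had 70.9 CPM with PD173074, against 190 CPM without PD173074 and 132 CPM in 2D culture.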
